A study of Mus musculus with 81 samples.

Results

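The transcripts described here encode the machinery that copies DNA and the regulators that commit a cell to copying it. They are 42 genes chosen by name: the loading and activation of the replicative helicase, the polymerases with their clamp, the supply of nucleotides, the packaging of new chromatin, and the cyclin E and E2F1 regulators of the passage from G1 to S phase. All 42 were found among 22869 gene symbols of the table, and where a gene had several transcript rows the row of highest mean was used. The study isolated the pancreas of wild-type CD1 embryos at E13.5 (embryonic day 13.5), separated the tissue with trypsin and loaded the suspension on a microfluidic device that takes up single cells. Values are RPKM, a read count scaled to transcript length and to the depth of the library, for 81 cells. The labels describe 1 group of cells and name no animal, treatment or mutant, so the 81 cells are 1 sample. No test was made between kinds of cells, every SD is a spread over cells, and every count or difference below describes these cells.

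In a dividing cell, ORC, CDC6 and CDT1 load the MCM2-7 helicase onto DNA in G1. At the onset of S phase CDC45 and GINS turn it into an active helicase, and the polymerases, the PCNA clamp and its RFC loader copy both strands. Many of these genes are targets of E2F factors, which RB family proteins hold in check until cyclin-dependent kinases release them. Genes of mitosis peak later, in G2 and M, and many are governed through a different promoter element, the cell cycle homology region. In the fetal pancreas both the epithelial progenitors and the surrounding mesenchyme divide.

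Most cells carried many reads. The estimated depth had a median of 3.53M reads, with at least 1.66M in 77 cells, while 4 shallow cells (C3, C61, C94 and C43) held 19815, 72485, 197469 and 419702 reads. For a transcript of 1 kb a single read of C3 counts as 50.5 RPKM. Clusters made without any cell cycle gene gave 66 mesenchymal-like cells, 4 epithelial-like, 2 endocrine-like and 4 macrophage-like cells, a cluster of 4 endothelial-like cells, and C3 alone without a name. The mesenchymal name rests on 6 or 7 of 18 measured markers per cluster, whereas all 13 macrophage markers and 9 of 14 epithelial markers reached 10 RPKM in most cells of their clusters.

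A few promoters are shown first, because the levels of replication and mitotic genes are set against each other below and their promoters differed in known letter strings. RefSeq start sites (build GRCm38.p6) were available for 33 members, as windows of 250 bases before to 50 bases after the start. Either of the E2F letter strings TTTCCCGC and TTTGGCGC, on either strand, was present in 10 of the 33 members (30.3%), in 0 of 31 mitosis and spindle genes, and in 1.798% of 27025 genes with a window. The letters TTTGAA, the core of the cell cycle homology region, were present on either strand in 4 of 33 members (12.1%), in 24 of 31 mitotic genes (77.4%) and in 20.2% of all genes. No matches overlapped among the members. The 10 members with an E2F string were Cdc6, Cdt1, Gins3, Mcm3, Mcm5, Mcm6, Mcm7, Pola1, Pold1 and Rfc3. In the sequences below the capitals mark these strings. Mcm3 (chr1:20820263-20820562, minus strand) holds an E2F string of each kind after its start, and Mcm6 (chr1:128359656-128359955, minus strand) holds TTTGGCGC at -110 and -47. Cdc6 (chr11:98907901-98908200, plus strand) has 1 string at -138. Cdc45 (chr16:18811923-18812222, minus strand) is a member with TTTGAA and no E2F string. Rrm2 (chr12:24708004-24708303, plus strand) has neither. Top2a (chr11:99024140-99024439, minus strand), a mitotic gene and no member, holds TTTGAA at -179 and -23.
Mcm3: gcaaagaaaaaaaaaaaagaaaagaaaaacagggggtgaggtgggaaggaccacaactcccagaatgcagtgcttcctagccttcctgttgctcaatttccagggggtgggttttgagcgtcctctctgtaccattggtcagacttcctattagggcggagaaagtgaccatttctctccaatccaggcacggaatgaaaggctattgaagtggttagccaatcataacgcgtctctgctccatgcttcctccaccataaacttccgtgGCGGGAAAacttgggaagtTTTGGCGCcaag
Mcm6: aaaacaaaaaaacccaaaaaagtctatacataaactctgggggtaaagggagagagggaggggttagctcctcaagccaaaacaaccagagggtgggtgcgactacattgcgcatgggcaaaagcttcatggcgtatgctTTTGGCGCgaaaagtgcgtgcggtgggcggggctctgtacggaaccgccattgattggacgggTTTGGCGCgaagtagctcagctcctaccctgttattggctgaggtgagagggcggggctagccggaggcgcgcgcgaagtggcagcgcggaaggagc
Cdc6: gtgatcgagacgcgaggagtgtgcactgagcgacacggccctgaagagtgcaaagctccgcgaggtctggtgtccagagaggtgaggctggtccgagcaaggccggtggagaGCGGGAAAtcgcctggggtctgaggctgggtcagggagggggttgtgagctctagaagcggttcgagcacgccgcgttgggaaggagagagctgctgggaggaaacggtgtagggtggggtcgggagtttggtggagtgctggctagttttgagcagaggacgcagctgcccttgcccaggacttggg
Cdc45: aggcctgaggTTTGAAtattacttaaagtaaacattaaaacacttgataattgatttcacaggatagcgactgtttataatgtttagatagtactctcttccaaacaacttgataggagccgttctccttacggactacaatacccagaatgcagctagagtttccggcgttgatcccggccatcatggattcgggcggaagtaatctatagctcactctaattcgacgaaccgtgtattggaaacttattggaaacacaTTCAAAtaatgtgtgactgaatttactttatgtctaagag
Rrm2: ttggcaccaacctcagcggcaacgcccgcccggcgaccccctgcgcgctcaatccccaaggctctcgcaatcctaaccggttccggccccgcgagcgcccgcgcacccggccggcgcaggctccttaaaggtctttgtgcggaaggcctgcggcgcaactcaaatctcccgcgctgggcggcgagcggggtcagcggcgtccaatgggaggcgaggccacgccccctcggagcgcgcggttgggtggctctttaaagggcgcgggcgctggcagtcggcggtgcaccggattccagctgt
Top2a: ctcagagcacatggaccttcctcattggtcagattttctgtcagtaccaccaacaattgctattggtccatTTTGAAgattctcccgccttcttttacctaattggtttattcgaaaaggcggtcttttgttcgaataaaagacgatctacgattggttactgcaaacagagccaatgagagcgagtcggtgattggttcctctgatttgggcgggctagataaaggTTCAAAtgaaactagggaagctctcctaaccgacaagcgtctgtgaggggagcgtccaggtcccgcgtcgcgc
A match is a run of letters and not a shown binding site.

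The first question was at which level the replication genes were present. They were detected widely but unevenly. All 42 members were above 0 in at least 3 cells, yet only Mcm4 and Rfc1 were above 0 in all 81, and 40 members reached 100 RPKM in at least 1 cell. Of the 3402 values, 1092 (32.1%) were listed at 0, 562 lay between 0 and 1 RPKM, and 1281 (37.7%) were 10 RPKM or more. The median of the 42 gene means was 27.9 RPKM, while the median of their medians was 1.96 RPKM. For many members the mean thus lay far above the median, while 13 of the 42 reached 10 RPKM in most cells. The same values were not counted over all genes, so this pattern does not set the members apart. As a caution on low values, Gapdh, a gene that every cell uses, averaged 0.622 RPKM in this table and was above 0 in 57 cells. Actb, the other such gene looked at, averaged 4289 RPKM and was above 0 in all 81 cells. Because of Gapdh, a 0 is given here as listed and not as absence.

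**Figure D1:**
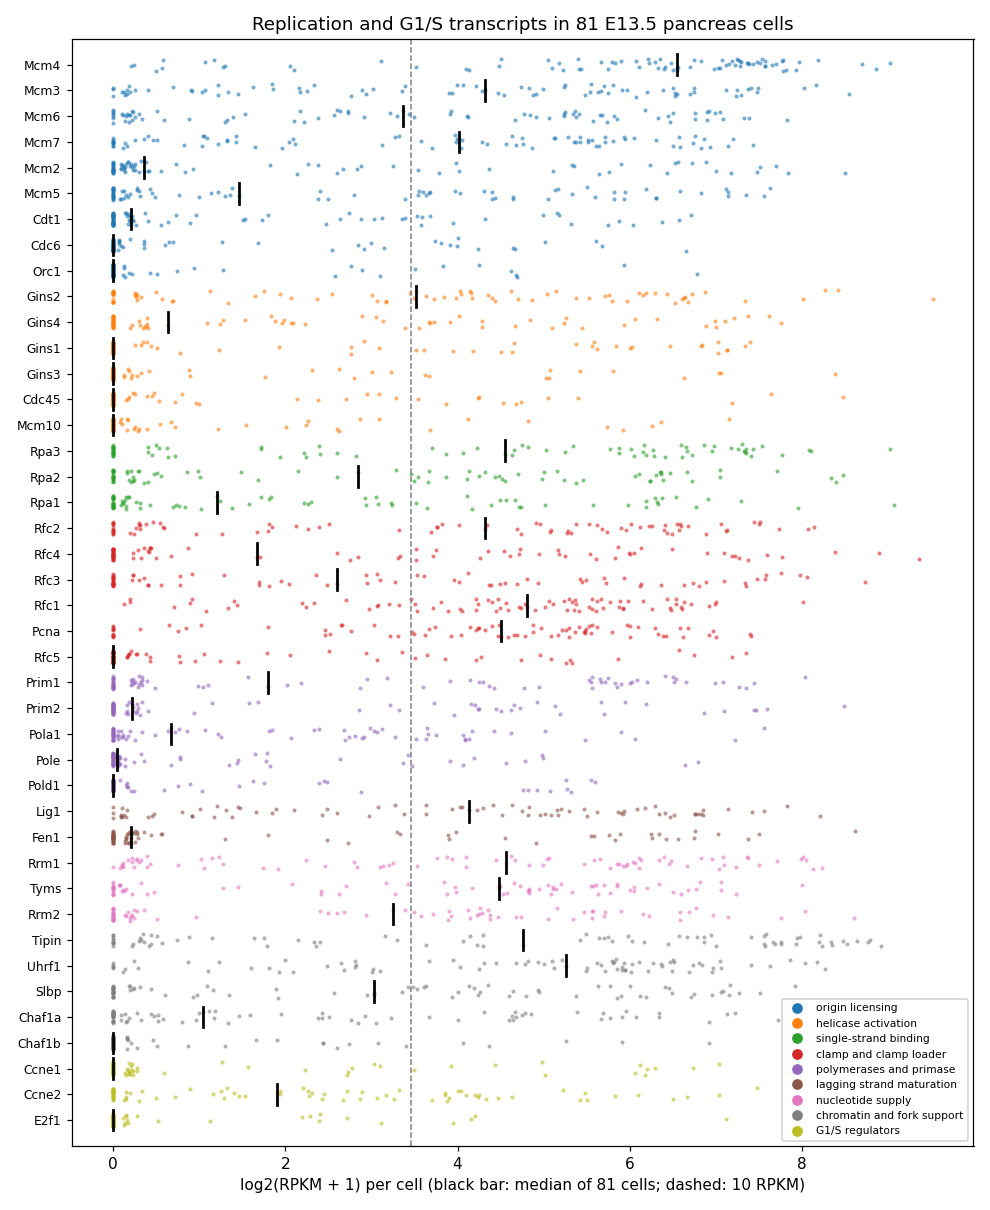
Level of each of the 42 members in 81 cells on the log2(RPKM + 1) scale. Each point is a cell, the black bar is the median over cells, colours give the role and the dashed line is 10 RPKM; Mcm4 has the highest median, at 92.4 RPKM, and 11 members have a median of 0.

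Among the members of origin licensing, each MCM2-7 subunit reached 10 RPKM in more cells than the loader genes Cdt1, Cdc6 and Orc1. Mcm4 (NM_008565, chromosome 16, 15623990 to 15637493 in mm9, the build of all transcript positions given here), a helicase subunit, averaged 113.4 ± 101.5 RPKM (SD, 81 cells), ranged from 0.157 to 516.2 RPKM and reached 10 RPKM in 69 cells. The remaining MCM2-7 subunits reached it in 47 (Mcm3), 46 (Mcm7), 39 (Mcm6), 35 (Mcm5) and 24 (Mcm2) cells, with means between 26.3 and 50.1 RPKM. The 6 proteins act as a single ring. All 6 transcripts were at 10 RPKM together in 4 cells, none was in 3 cells, and the median cell had 3. Mcm2, at 10 RPKM in 24 cells, sets the most that the first count could reach. The count to be expected from subunits that vary separately was not computed. Of the loaders, Cdt1 averaged 9.16 ± 21.3 RPKM and reached 10 RPKM in 16 cells. Cdc6 averaged 4.98 ± 14.3 RPKM and did so in 12 cells. Orc1 (NM_011015, chromosome 4, 108252059 to 108287436), the largest ORC subunit, averaged 3.86 ± 14.5 RPKM, was listed at 0 in 58 cells and reached 10 RPKM in 8.

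Apart from Gins2, the helicase activators reached 10 RPKM in fewer cells than any of Mcm3 to Mcm7. Gins2 (NM_178856, chromosome 8, 123105166 to 123112975), a GINS subunit, was the highest of them at 44.4 ± 99.8 RPKM and reached 10 RPKM in 42 cells, with 729.4 RPKM in C77. Gins3 (NM_030198, chromosome 8, 98157459 to 98168959), which works in the same complex, was above 0 in 28 cells and reached 10 RPKM in 11. Gins4 and Gins1 did so in 25 and 23 cells, Cdc45 in 12 and Mcm10, a factor of helicase activation, in 8. For Cdc45 and Mcm10, the 5 highest cells held 81.6% and 80.9% of the summed RPKM of all 81 cells. Of the 50-base windows of the Gins2 transcript 18.2% also occur in transcripts of the gene Gse1, so its level is uncertain.

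Of the genes for proteins that coat and clamp DNA, Rfc1 and Pcna were among the members at 10 RPKM in the most cells. Rpa3 (NM_026632, chromosome 6, 8205936 to 8209141), the smallest subunit of the single-strand binding protein RPA, averaged 59.7 ± 86.04 RPKM. It reached 10 RPKM in 45 cells, against 39 for Rpa2 and 25 for Rpa1, the fewest of the trio. Rfc1 (NM_011258, chromosome 5, 65653091 to 65726878), the large subunit of the clamp loader, reached 10 RPKM in 62 cells and averaged 39.6 ± 41.1 RPKM. Pcna, the clamp itself, followed in 56 cells with 34.5 ± 38.2 RPKM. Rfc2 had the highest mean of this role, 45.8 ± 62.6 RPKM, and Rfc5 the lowest, 10.9 ± 29.4 RPKM, with 39 cells above 0. Rfc3 averaged 42.1 ± 76.6 RPKM. Rfc4 had a median of 2.18 RPKM and reached 653.6 RPKM in C35. Pcna shares 6.54% of its windows, with its pseudogene Pcna-ps2, and Rfc2 shares 9.75%, most of them with Lat2.

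Among the polymerases, the primase subunits had higher means than the large catalytic subunits. Prim1 (NM_008921, chromosome 10, 127452271 to 127467086), which makes the RNA primer, averaged 30.9 ± 49.5 RPKM and reached 10 RPKM in 35 cells, and its partner Prim2 averaged 21.3 RPKM. Pola1, Pole and Pold1, the catalytic subunits of the polymerases alpha, epsilon and delta, averaged 10.1, 5.16 and 4.35 RPKM. Pold1 was above 0 in 27 cells, the fewest of the role. For the joining of lagging-strand fragments, the ligase gene Lig1 averaged 39.4 ± 55.8 RPKM and was above 0 in 78 cells. The flap endonuclease gene Fen1 averaged 23.2 ± 56.8 RPKM, was above 0 in 52 cells and shares 32.5% of its windows with Gm10143, so its level is uncertain.

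Genes of nucleotide supply were detected in most cells. Rrm1 (NM_009103, chromosome 7, 109590209 to 109618285), the large subunit of ribonucleotide reductase, averaged 55.3 ± 74.7 RPKM and was above 0 in 80 cells. Tyms, thymidylate synthase, had a median of 21.3 RPKM and an SD of 43.7 RPKM, and shares 6.29% of its windows with other genes. Rrm2 (NM_009104, chromosome 12, 25393119 to 25399011), the small subunit, averaged 30.6 ± 61.3 RPKM and was above 0 in 59 cells. Of the chromatin and fork genes, Tipin, a fork-protection factor, averaged 99.0 ± 130.1 RPKM and lay at 100 RPKM or more in 28 cells. Uhrf1, which recruits the maintenance DNA methyltransferase to new DNA, averaged 55.8 ± 66.02 RPKM. Slbp, the histone mRNA stem-loop binding protein, averaged 31.2 ± 50.5 RPKM. The chromatin assembly subunits Chaf1a and Chaf1b averaged 18.2 ± 37.6 and 3.67 ± 15.4 RPKM, and Chaf1b was above 0 in 24 cells. Chaf1a shares 15.9% of its windows with Ubxn6.

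The G1/S regulators were low. Ccne1 (NM_007633, chromosome 7, 38883003 to 38892509), cyclin E1, averaged 15.9 ± 48.8 RPKM and reached 10 RPKM in 14 cells. Ccne2, cyclin E2, averaged 13.8 ± 29.6 RPKM and did so in 24. E2f1 (NM_007891, chromosome 2, 154385375 to 154395588), the transcription factor that drives many of the other members, averaged 2.69 ± 15.5 RPKM and was above 0 in 20 cells. The highest E2f1 value, 137.7 RPKM in C83, and the next 4 cells made up 88.9% of its sum.

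The second question was what share of the cells carried a replication programme and how it related to mitotic transcripts. A cell was counted when at least 10 of the 42 members reached 10 RPKM. This held for 67 of 81 cells (82.7%, exact Clopper-Pearson 95% interval 72.7% to 90.2%), and the interval covers counting error only. How many other genes of like level reach 10 RPKM per cell was not counted, so this share does not set the members apart. The word programme stands for the count alone. The number of members at 10 RPKM per cell ran from 2 to 25 with a median of 16. Only 2 cells lay at 10 members and 6 at 9. Without the 4 shallow cells, which all passed, the count was 63 of 77 (81.8%). The share was 53.1% when 15 members were needed. A call by phase asked that a cell's mean over members, centred on all cells, be above 0 and above its mitotic counterpart. It named 27 cells S-like (33.3%), 33 cells G2/M-like and 21 neither. Both means were centred on these same 81 cells, so the call is relative and its share depends on the centring. Neither mean was scaled for its spread. The mean over members ran from 0.647 to 3.85 and the mitotic mean from 0.138 to 5.96, so the mitotic mean weighs more in the comparison. C37, the cell of highest mean over members, was named G2/M-like. Neither rule measures DNA content, so no fraction of cells in S phase can be read from them.

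Most cells with the replication programme also held many mitotic transcripts, and a smaller set of cells held the programme with few of them. A cell was taken as mitotic-positive when at least 5 of 36 mitosis and spindle genes, none of them a member, reached 10 RPKM. There were 53 mitotic-positive cells, with a median of 19 such genes, and 28 mitotic-negative cells, with a median of 2. No cell had exactly 5 and 7 cells had 4. The replication programme was present in 48 of the 53 mitotic-positive cells (90.6%, 79.3% to 96.9%) and in 19 of the 28 mitotic-negative cells (67.9%, 47.6% to 84.1%). All 19 mitotic-negative cells with the programme were mesenchymal-like, but so were 26 of all 28 mitotic-negative cells. The 19 cells, of which C61 is shallow, had 0 to 4 mitotic genes at 10 RPKM with a median of 3. Of the 19, 6 had 4, just under the limit. C46 among them had 24 members and 3 mitotic genes at 10 RPKM. The reverse state, mitotic-positive without the programme, was seen in 5 cells (C31, C40, C52, C54 and C66), and 9 cells had neither. Mitotic-positive cells had a median of 3.81M reads and 4237 genes at 1 RPKM, against 3.24M reads and 3775 genes in mitotic-negative cells. The part of depth in these shares was not tested.

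**Figure D2:**
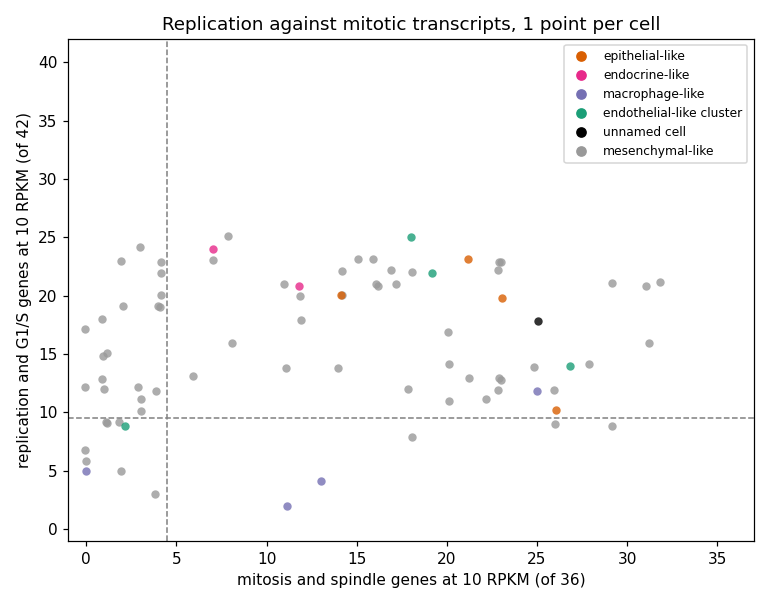
Number of members at 10 RPKM (of 42, vertical) against number of mitosis and spindle genes at 10 RPKM (of 36, horizontal), 1 point per cell with a small random offset, coloured by class. Dashed lines are the limits of 10 members and 5 mitotic genes; 48 cells lie past both and 19 cells lie past the first limit and below the second.

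The genes of nucleotide supply and some of helicase activation were higher in mitotic-positive than in mitotic-negative cells by at least 1 log2 unit. Of the 42 members, 10 (23.8%) were higher in mitotic-positive cells by at least 1 log2 unit in the mean of log2(RPKM + 1), against 5.05% of 13237 genes above 0 in at least 3 cells. In the other direction 1 member was lower by as much, against 0.657% of all genes. The median difference was 0.38 for the members and 0.12 for all genes. All 3 genes of nucleotide supply, 3 of 6 helicase activators and 0 of 9 licensing genes were among the 10. With so few licensing genes, 0 of 9 is near the share of 5.05% over all genes. Without the 4 shallow cells 10 members passed as well, but Lig1 (0.87) was no longer among them and Gins2 (1.21, against 0.99 with all cells) was. Differences on this scale understate the change of low genes. Most members had a higher mean than most genes: 34.9% of genes had a lower mean than E2f1 and 97.9% a lower mean than Mcm4. The shares over all genes, here and below, were not matched for level.

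Tyms was at a median of 29.9 RPKM (0 to 149.1) in mitotic-positive cells and 0.138 RPKM (0 to 254.4) in mitotic-negative cells. Its mean was 4.22 ± 2.29 in mitotic-positive and 1.93 ± 2.42 in mitotic-negative cells on the log2 scale, a difference of 2.30. The ranges overlapped and the highest value was in a mitotic-negative cell, while 39 of 53 mitotic-positive cells and 7 of 28 mitotic-negative cells reached 10 RPKM. Rrm1 had a median of 46.8 RPKM (0.0546 to 298.3) in mitotic-positive cells against 1.84 RPKM (0 to 253.1) in mitotic-negative cells, a log2 difference of 2.24. Rrm2 had a median of 16.7 RPKM (0 to 388.3) in mitotic-positive cells and 0 RPKM (0 to 139.6) in mitotic-negative cells, a difference of 2.03. These enzymes make deoxynucleotides, and each was above 0 in some mitotic-negative cells as well.

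Outside nucleotide supply, Rpa3 differed by 2.03, with a median of 39.4 RPKM (0 to 273.8) in mitotic-positive and 0.598 RPKM (0 to 519.8) in mitotic-negative cells. The clamp loader gene Rfc4 differed by 1.72, and 28 of 53 mitotic-positive against 6 of 28 mitotic-negative cells reached 10 RPKM. Of the helicase activators, Gins4 differed by 1.55, Gins1 by 1.17 and Cdc45 by 1.15. Cdc45 was at 10 RPKM in 11 mitotic-positive cells and 1 mitotic-negative cell. Uhrf1 differed by 1.501, with a median of 49.8 RPKM (0 to 307.0) in mitotic-positive cells and 14.9 RPKM (0 to 286.3) in mitotic-negative cells. Lig1, with a median of 23.7 RPKM in mitotic-positive and 7.23 RPKM in mitotic-negative cells, lay just past the limit with all 81 cells. The groups overlapped for each of these genes.

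The MCM2-7 subunits were divided. Mcm3 (0.55), Mcm7 (0.52), Mcm5 (0.15) and Mcm6 (0.06) had differences above 0 but under 1 log2 unit. Mcm2 was the member lower in mitotic-positive cells, with 1.75 ± 2.38 against 2.99 ± 3.22 in mitotic-negative cells, a difference of -1.24. It reached 10 RPKM in 12 cells of each kind, which are 12 of 53 mitotic-positive and 12 of 28 mitotic-negative cells. Mcm4 had a median of 83.9 RPKM (0.157 to 414.1) in mitotic-positive cells and 135.5 RPKM (0.417 to 516.2) in mitotic-negative cells, a difference of -0.63. The cyclin gene Ccne2 differed by -0.35, the chromatin assembly gene Chaf1a by -0.35 and E2f1 by -0.32, all within the 1 log2 limit. Pcna, often used as a mark of proliferation, differed by -0.22. It was at 10 RPKM in 36 of 53 mitotic-positive cells and in 20 of 28 mitotic-negative cells. Among members with an E2F string in the promoter window, 0 of 10 were higher by 1 log2 unit in mitotic-positive cells, and among those without one 8 of 23 were. The share over all genes was 5.05%, and 0 of 10 is near it. The median differences of these groups were 0.15 with an E2F string and 0.46 without.

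**Figure D3:**
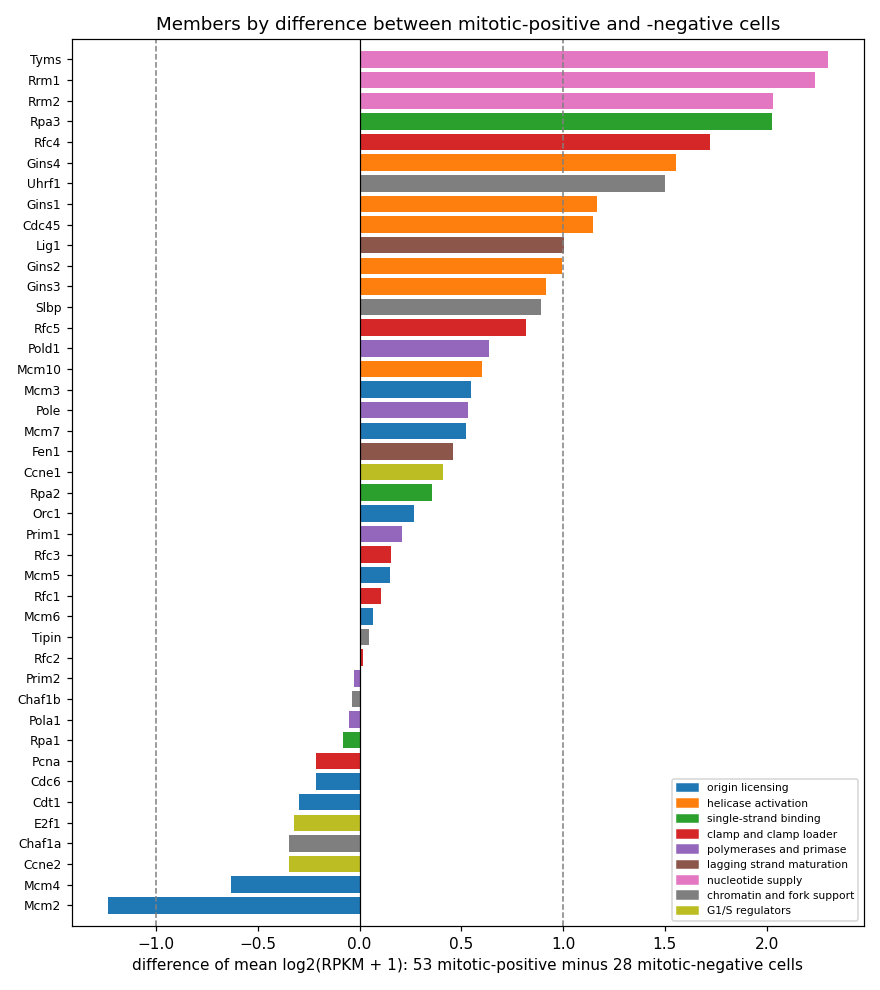
Difference of the mean log2(RPKM + 1) between 53 mitotic-positive and 28 mitotic-negative cells for each member, positive where mitotic-positive cells are higher. Bars are coloured by role and dashed lines mark 1 log2 unit; Tyms, Rrm1 and Rrm2 lead and Mcm2 is the lowest at -1.24.

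Within the 66 mesenchymal-like cells, 13 of 42 members were higher by 1 log2 unit in the 40 mitotic-positive than in the 26 mitotic-negative cells, against 5.05% of all genes there. All 6 epithelial-like and endocrine-like cells, 3 of 4 macrophage-like cells and 3 of 4 endothelial-like cells were mitotic-positive. Summed epithelial markers lay between 0 and 1857 RPKM in mitotic-positive cells and between 0 and 184.3 RPKM in mitotic-negative cells, so the comparison within mesenchymal-like cells gives the count without the other cell types.

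The third question was how far the members vary together from cell to cell. Over 81 cells the Spearman correlation between 2 members had a median of 0.12 (861 pairs, SD 0.12 over pairs), compared with 0.42 between 2 mitotic genes (630 pairs), 0.05 between a member and a mitotic gene (1512 pairs) and 0.01 over all gene pairs. Correlations are descriptions, without a p, over cells that share the chemistry and differ in depth. The mean over members and the mean over mitotic genes had a rho of 0.18 over the 81 cells and 0.20 within mesenchymal-like cells. The member mean had a rho of 0.20 with estimated reads and of 0.43 with the number of genes at 1 RPKM, both as large as or larger than its rho with the mitotic mean. For the mitotic mean these were 0.23 and 0.48. The part of depth and gene number in the rho between the 2 means was not tested. Of the single members, 0 of 42 had a rho of at least 0.4 with the mitotic mean, which is near the 1.07% of all genes. That share includes the mitotic genes, which make up the mitotic mean. The highest members were Tyms (0.35), Rrm1 (0.34), Rfc4 (0.33) and Rrm2 (0.30), and 15 members lay below 0, with Mcm4 at -0.21 and Mcm2 at -0.19.

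**Figure D4:**
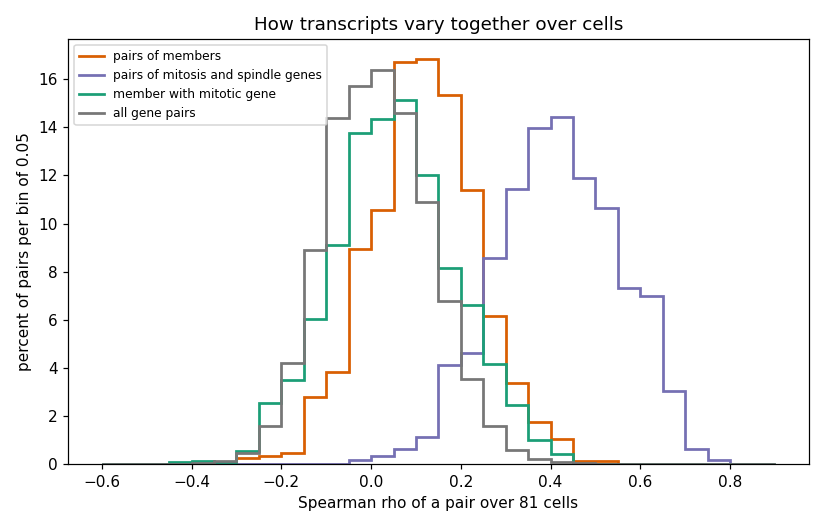
Percent of gene pairs in bins of Spearman rho over 81 cells, for pairs of members, pairs of mitosis and spindle genes, a member with a mitotic gene, and all gene pairs. Mitotic pairs have a median of 0.42, member pairs of 0.12 and all gene pairs of 0.01.

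Some members followed the rest of the module better than others. Against the mean of the other 41 members, the rho was 0.58 for Rrm2, 0.56 for Cdc6, 0.56 for Pcna, 0.54 for Uhrf1, 0.52 for Mcm3 and 0.51 for Lig1, with a median of 0.28 over the members. It was 0.05 for Rpa3 and 0.07 for Rfc2. The closest pair was Pcna with Ccne2 (0.51), followed by Rrm1 with Rrm2 (0.46), the subunits of 1 enzyme, Mcm3 with Prim1 (0.44) and Cdc6 with Pcna (0.43). The most opposed pair was Mcm4 with Rfc5 (-0.26). By role, the median pair was 0.40 for nucleotide supply (3 pairs), 0.16 among Mcm2 to Mcm7 (15 pairs), 0.16 for the chromatin and fork genes (10 pairs), 0.15 for polymerases (10 pairs), 0.08 for helicase activation (15 pairs), 0.05 for clamp and loader (15 pairs) and 0.03 for RPA (3 pairs).

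Outside every cell cycle list, 8440 genes above 0 in at least 20 cells were ranked by rho with the member mean over the 77 cells that are not shallow. The 10 most alike were Zfp367 (0.63), Slfn9 (0.55), Hist1h4d (0.53), Csnk2b (0.50), Gtl3 (0.49), Ncapg2 (0.48), Atad5 (0.48), Mrps15 (0.48), Ranbp1 (0.47) and Dtl (0.47), where the median gene had 0.07. With the mitotic mean, the rho was -0.02 for Zfp367, -0.01 for Dtl, an adaptor of the ubiquitin ligase that removes CDT1, and -0.14 for Atad5, which unloads the PCNA clamp. It was 0.36 for Hist1h4d, a histone H4 gene. The genome holds many near-identical histone H4 genes, so the level of Hist1h4d is uncertain.

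Further genes of the pathway were counted in the same way. Over all genes, 5.05% were higher by 1 log2 unit in mitotic-positive than in mitotic-negative cells and 0.657% were lower. Of 33 further replication genes, 7 were higher by 1 log2 unit in mitotic-positive than in mitotic-negative cells and 0 lower, with a median difference of 0.34. The largest was the histone chaperone gene Asf1b (2.82 in mitotic-positive, 0.47 in mitotic-negative cells). The thymidine kinase gene Tk1, with a difference of 1.58, was also among the 7. Nasp, another histone chaperone, was the most abundant at 134.1 ± 118.3 RPKM, followed by Cdc7 (47.5), the kinase that fires origins, Orc6 (44.6) and Rbbp4 (32.4). By rho with the member mean, 5 of the 33 reached 0.4, among them Atad2 (0.58), Dnmt1 (0.49), Clspn (0.45) and Gmnn (0.45). The share of all genes at that rho was not counted. Of 13 repair and checkpoint genes 4 were higher in mitotic-positive cells by 1 log2 unit and 0 lower, and of 12 E2F and RB family genes 0 in either direction. The counts of 0 in these short lists are near the shares over all genes. With the member mean, the repressors E2f7 and E2f8 each had a rho of 0.47. Tfdp1, the dimer partner of E2F factors and the gene of highest mean in that list (33.99 RPKM), had a rho of 0.06.

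Among cyclins, kinases and inhibitors of G1, the kinase gene Cdk4 and the inhibitor gene Cdkn1c were abundant. Cdk4, the G1 kinase, averaged 219.8 ± 166.2 RPKM and reached 10 RPKM in 78 cells, with a rho of 0.08 with the member mean. Its partners Ccnd3, Ccnd2 and Ccnd1 averaged 61.7, 56.4 and 41.7 RPKM. Of 9 cyclin and kinase genes 2 were higher by 1 log2 unit in mitotic-positive cells, against 5.05% of all genes. Ccna2, the cyclin of S phase and G2, was 1 of the 2, at 3.75 in mitotic-positive and 0.46 in mitotic-negative cells. Cdkn1c, which encodes the CDK inhibitor p57, averaged 1577 ± 808.0 RPKM, and its lowest cell held 130.6 RPKM. It thus exceeded 10 RPKM in all 81 cells, those with the replication programme included, and had a rho of 0.11 with the member mean. Of the other inhibitors, Cdkn2c averaged 6.28 RPKM, Cdkn1b 2.71 and Cdkn1a 0.981 RPKM, and Cdkn2a and Cdkn2b were listed at 0 in every cell.

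The last question was in which kinds of cell the members were found. The 4 macrophage-like cells stood lowest. C2, C31, C36 and C54 had 5, 4, 12 and 2 members at 10 RPKM, with a median of 4.5, against a median of 15.5 (3 to 25) in the 66 mesenchymal-like cells. Their mitotic genes at 10 RPKM numbered 0, 13, 25 and 11, with a median of 12, which is also the mesenchymal-like median. Of 42 members, 29 (69.05%) were lower in macrophage-like than in mesenchymal-like cells by at least 1 log2 unit, against 14.3% of all genes, and 0 were higher, against 12.7% of all genes. The mitosis and spindle list had 7 of 36 lower and 4 higher. The shares over all genes were not matched for level, and most members had a higher mean than most genes. Macrophage-like cells had a median of 2.89M reads and 3554 genes at 1 RPKM, against 3.51M reads and 4019 genes in mesenchymal-like cells. The part of depth in this difference was not tested.

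Tipin was at 0.286, 0.420, 0 and 0 RPKM in C2, C31, C36 and C54 and had a median of 46.3 RPKM (0 to 480.8) in mesenchymal-like cells, a log2 difference of -4.32. Mcm6 lay at 0, 0, 0.0730 and 0.119 RPKM in macrophage-like cells, with a median of 12.2 RPKM (0 to 224.8) in mesenchymal-like cells. Lig1 lay between 0.0684 and 0.896 RPKM in macrophage-like cells and had a median of 16.6 RPKM in mesenchymal-like cells. Slbp and Prim1 were listed at 0 in all 4 macrophage-like cells, and 23 of the 42 members reached 10 RPKM in none of them. Pcna was less apart, with 16.7, 0.802, 41.5 and 5.79 RPKM in C2, C31, C36 and C54 and a median of 21.4 RPKM in mesenchymal-like cells.

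Epithelial-like cells and endocrine-like cells had medians of 20 and 22.5 members at 10 RPKM, against 15.5 in mesenchymal-like cells. They were also richer in genes at 1 RPKM, with medians of 4760.5 in epithelial-like and 5086 in endocrine-like cells against 4019 in mesenchymal-like cells, and in reads, with 4.57M and 3.79M against 3.51M. The part of depth in this difference was not tested. C43, C47, C82 and C95, the epithelial-like cells, had 23, 20, 10 and 20 members at 10 RPKM, and C43 is a shallow cell. Without the shallow cells 11 members were higher by 1 log2 unit in the epithelial-like and endocrine-like cells than in mesenchymal-like cells. Among members, 12 (28.6%) were higher by 1 log2 unit in the 6 epithelial-like and endocrine-like cells than in mesenchymal-like cells, against 17.7% of all genes, and 5 were lower, against 4.57% of all genes. In the 4 epithelial-like cells alone 11 members were higher, against 21% of all genes, and 7 were lower, against 6.38%, while 27 of 36 mitotic genes were higher. Again, no share over all genes was matched for level. Tyms was at 89.7, 131.9, 34.4 and 46.5 RPKM in the epithelial-like and 21.3 and 56.5 RPKM in the endocrine-like cells C24 and C56, with a median of 14.7 RPKM (0 to 254.4) in mesenchymal-like cells. Prim1 differed by 2.45 and Gins3 by 2.08, and C47 alone held 331.9 RPKM of Gins3. Gins1 was listed at 0 in all 6 and at 10 RPKM in 22 of 66 mesenchymal-like cells.

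The endocrine-like cells C24 and C56 had 24 and 21 members at 10 RPKM beside 7 and 12 mitotic genes. In them 15 of 42 members were higher by 1 log2 unit than in mesenchymal-like cells, against 24% of all genes, and 6 were lower, against 11.9% of all genes. The mitotic list had 3 of 36 higher and 13 lower. Pold1 was at 37.7 and 45.95 RPKM, Prim1 at 72.7 and 173.3 RPKM and Mcm3 at 49.7 and 106.5 RPKM in C24 and C56. Both cells were called S-like by phase, as were 1 of 4 epithelial-like, 0 of 4 macrophage-like and 23 of 66 mesenchymal-like cells. The phase call is relative and not scaled for spread. With 2 cells, these values describe C24 and C56 alone. The 4 endothelial-like cells had 9 to 25 members at 10 RPKM, with a median of 18, and 3 of them held the programme.

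**Figure D5:**
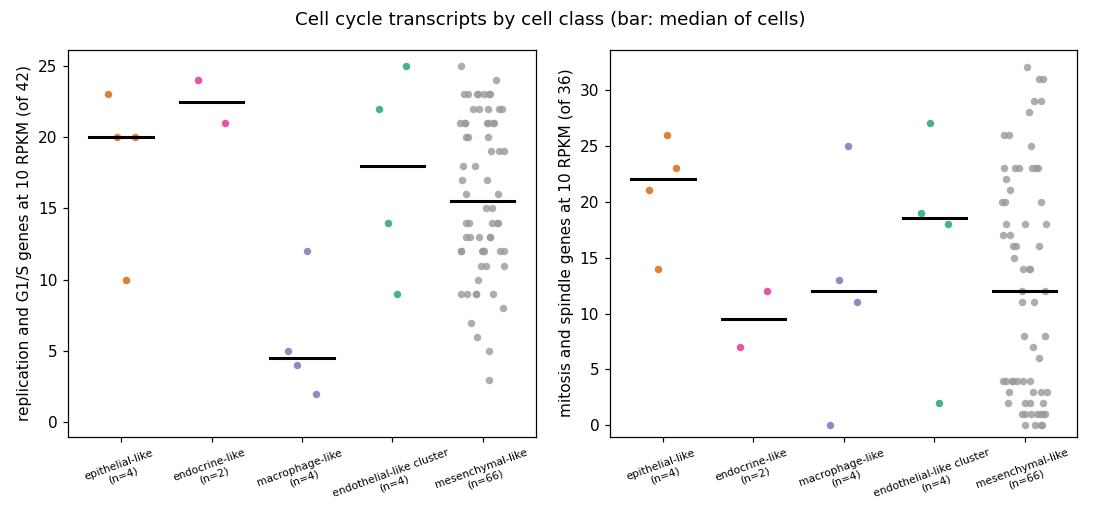
Number of members (left, of 42) and of mitosis and spindle genes (right, of 36) at 10 RPKM in each cell, by class, with the median as a bar. The 4 macrophage-like cells have 2 to 12 members, below the mesenchymal-like median of 15.5, and 0 to 25 mitotic genes around the shared median of 12.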

How the data were processed

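Per the labels' protocols, cDNA of each cell was amplified with a SMARTer kit and sequenced from Nextera XT libraries. CASAVA 1.8.2 and the build mm9 stand in the submitters' processing notes, and for aligner, counter and annotation the sources used here give nothing. The table deposited by the authors has 29510 transcript rows, of which 9029 were 0 in every cell. No unit is stated in it, and the authors' deposited values were read as RPKM, scaled by transcript length and library depth, because low values times transcript length (GENCODE vM21) fall on steps of 1 read: of values under 8 reads a median of 77.3% per cell lay within 0.15 of a whole number. These steps gave the estimated reads, by a method tested on simulated depths.

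Values were put on the log2(RPKM + 1) scale. Cells were clustered (1000 variable genes, 10 principal components, 10 Ward clusters) without cell cycle genes and named by the marker list with the largest share at 10 RPKM in at least 50% of a cluster's cells, with at least 3 markers; C3, a cluster of 1 cell with under 1/3 of the median depth whose leading genes held no marker, was left without a name. No doublet caller was run on 81 cells. Genes named are each role's highest and least detected members, the 10 largest and 5 smallest differences, up to 4 per further list and the 10 most alike; others were named after their values were seen. The members and lists were chosen with earlier results of these data known. The rule for naming clusters came from that earlier work, which set it after seeing values. Alternatives varied cells, levels, pseudocount, scaling and rows. Analyses used Python 3.11.15, numpy 2.4.6, pandas 2.3.3 and scipy 1.17.1.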

Additional observations from a re-analysis of the deposited data

How the results depend on the processing

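No paired analysis was possible because the labels give 1 group and no result comes from a test. A share was taken as moved outside its 95% interval, a count past 1.5 times, the correlation of means past 0.1 and the median over pairs past 1 SD over pairs. By these limits 39 of 46 alternatives left a result in place and 7 moved it; in none did a correlation change sign. The share of cells with the programme, 82.7%, became 92.6% at a level of 1 RPKM, 70.4% at 20 RPKM, 96.3% with 5 members needed, 53.1% with 15 needed and 33.3% by phase call. The changed levels and numbers of members are stricter or looser limits, while the phase call is a different rule, set relative to these cells. With a pseudocount of 0.1 RPKM, 16 in place of 10 members were higher in mitotic-positive than in mitotic-negative cells, and 19 in place of 12 in epithelial-like and endocrine-like than in mesenchymal-like cells; a smaller pseudocount widens differences of low genes. The count of 10 lay between 8 and 13 under the other settings. It was 12 in cells numbered 1 to 48 and 11 in cells numbered 49 to 96. The correlation of the replication and mitotic means lay between 0.12 and 0.21, and the median between members between 0.10 and 0.12. Leaving out each macrophage-like cell gave 27 to 31 members lower, against 29 with all 4; this, the pseudocount there (34), the comparison with mesenchymal-like cells of no more genes (28, with 62 of 66 cells kept, so it hardly changes the depth) and the endocrine-like cells alone (15 higher) were chosen after seeing the data. Depth limits values of 0 in the 4 shallow cells, and 10 RPKM can be less than 1 read in C3 and C61.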
